A study of Mus musculus with 8 samples.

Results

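The nuclear genes for the subunits of the mitochondrial respiratory chain and of ATP synthase were followed in liver sinusoidal endothelial cells, the fenestrated cells that line the capillaries of the liver. The members were the targets whose RefSeq accession maps to a mouse gene symbol of a fixed set of subunit names. These were 64 genes of the 23930 targets measured, 32 of complex I, 4 of complex II, 8 of complex III, 9 of complex IV and 11 of complex V. This rule reads names and no levels, and all 64 passed the filter on low counts. The tested mice had received 150 µg of iron citrate into a vein and the control mice 0.05 M citrate buffer by the same route. All were wild type female Balb/c mice, described as young, and the cells were taken 5 h after the injection. A cell sorter collected the endothelium by 3 surface markers (CD45-dim, STAB2-high, CD146-high), and 4 libraries per group were used here, where the design text speaks of 5; the others were not analysed here. The titles name 1 mouse per library, and nothing is said of litters or days, so the p-values speak only for the spread among these libraries.

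Complex I takes electrons from NADH and complex II takes them from succinate. Both pass them through ubiquinone to complex III, from there through cytochrome c to complex IV, and so to oxygen. Complexes I, III and IV pump protons across the inner membrane, and complex V, the ATP synthase, lets them back to make ATP. Electrons travel along iron-sulfur clusters and haem groups, so the chain is among the main users of iron in a cell. The catalytic subunits made from mitochondrial DNA were not analysed here. Sinusoidal endothelium, like most endothelium, is known for drawing much of its ATP from glycolysis.

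Genes of this set are known to be driven by nuclear respiratory factor 1 (*Nrf1*) and by GABP, an ETS family factor that is also called nuclear respiratory factor 2 and is not the stress factor NRF2 (*Nfe2l2*). Windows from 250 bases before to 50 bases after a start of transcription were given by RefSeq (GRCm38.p6) for 52 of the 64 genes, 56 windows in all. The ETS core CCGGAAG, searched on both strands, was in 14 of the 56 windows (25%), against 8.86% of 32851 windows of all genes. The NRF1 palindrome, which is GCGC, 2 bases of any kind and GCGC again, was in 15 (26.8%), against 6.23% of all windows. The antioxidant response element core TGACNNNGC, to which NRF2 binds, was in 7 (12.5%), against 12.4% of all windows. The windows of all genes were not matched to those of the members for base content. The stretches before the start of *Cox6a1* and *Sdhd* are shown because both hold an ETS core and an NRF1 palindrome there. Capitals mark these motifs. The *Cox6a1* stretch is chr5:115348959-115349130 and the *Sdhd* stretch is chr9:50603850-50603969, both on the minus strand and written 5′ to 3′ up to the base before the start.
Cox6a1: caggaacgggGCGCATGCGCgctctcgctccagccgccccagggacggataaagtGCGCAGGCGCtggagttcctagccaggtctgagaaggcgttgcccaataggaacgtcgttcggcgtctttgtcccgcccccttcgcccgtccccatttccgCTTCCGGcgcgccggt
Sdhd: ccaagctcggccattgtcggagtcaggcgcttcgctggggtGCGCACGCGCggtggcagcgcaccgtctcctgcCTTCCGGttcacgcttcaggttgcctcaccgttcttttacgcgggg
The *Cox6a1* stretch holds 2 NRF1 palindromes and 1 ETS core, and the *Sdhd* stretch 1 of each. The 14 genes with an ETS core had a median log2 fold change (iron citrate over citrate buffer) of -0.10 and the genes with a window but no such core one of -0.11. For the NRF1 palindrome the medians were -0.08 with it and -0.12 without it, and for the antioxidant response element core -0.06 with it and -0.13 without it. In the 6 libraries left without citrate buffer replicates 1 and 2 the medians were -0.30 with an ETS core and -0.22 without one, and -0.24 with the palindrome and -0.25 without it. For the antioxidant response element core they were -0.19 with it and -0.27 without it. A match describes the letters of a window and not the binding of a factor.

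Each library held between 7969520 and 11314659 counts on targets, and the 64 genes took 0.673% to 0.801% of them in the iron citrate libraries and 0.761% to 0.844% in the buffer libraries. The treatment was visible in the RNA, with the haem oxygenase *Hmox1* at 3232 ± 322 counts per 1000000 reads (CPM) after iron citrate and 88.5 ± 25.1 CPM after buffer (SD, n = 4 each). Citrate buffer replicate 1 stood apart, with a median correlation to its own group of 0.839, against 0.962 to 0.981 in the other 7 libraries. Citrate buffer replicate 2, at 0.962, did not stand apart by this measure. Results are given with all 8 libraries and, as a second fit, without citrate buffer replicates 1 and 2. The summed CPM of 9 markers of sinusoidal endothelium was 19171 to 20776 in the iron citrate libraries. It was 11527, 18151, 20097 and 23871 in citrate buffer replicates 1 to 4. In a bulk sample, fewer cells of a type and less RNA per cell cannot be told apart.

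No subunit gene passed the test after iron citrate. In the edgeR quasi-likelihood test over 14601 targets, 0 of 64 members had an adjusted p under 0.05, where 0.555% of all tested targets did (0.527% higher and 0.0274% lower). The smallest adjusted p of a member was 0.333. At an unadjusted p under 0.05, 3 members were lower (4.69%) and 0 higher, against 8% and 6.57% of all targets. DESeq2 called 1 member, *Ndufb3*, where it called 2.5% of all targets (0.479% lower), and limma-voom called 0, where it called 1.98% of all (0.295% lower). The log2 fold changes ran from -0.46 to 0.26 with a median of -0.09, beside a median of -0.01 over all tested targets. Of the 64, 50 were negative (78.1%, against 51% of all targets). Members and targets were not matched for transcript length, whose correlation with the log2 fold change is given below. The 95% interval of the log2 fold change lay within a 1.5-fold change in either direction for 46 members and within a 2-fold change for 63. The exception was *Cox6c*, which stood at 0.794 to 2.40 CPM in the 8 libraries.

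Summed over its genes, complex I stood at 2912, 2841, 3350 and 2836 CPM in iron citrate replicates 1 to 4 and at 3094, 3059, 3345 and 3526 CPM in citrate buffer replicates 1 to 4. Iron citrate replicates 1, 2 and 4 lay below all buffer libraries, and replicate 3 lay among them. Without TMM factors, as CPM of library totals, complex I stood at 2837, 2741, 3148 and 2794 in iron citrate replicates 1 to 4 and at 3561, 3242, 3323 and 3343 in citrate buffer replicates 1 to 4, so on that scale the groups did not overlap. The log2 ratio of the means was -0.13 with TMM factors and -0.23 without them. Complex II averaged 543 ± 56.6 CPM after iron citrate and 541 ± 93.8 CPM after buffer. Complex III averaged 775 ± 105 CPM after iron citrate and 833 ± 118 CPM after buffer (SD, n = 4 each for all these means). Complex IV averaged 1400 ± 146 CPM after iron citrate and 1471 ± 189 CPM after buffer, and complex V 1650 ± 250 CPM after iron citrate and 1724 ± 261 CPM after buffer. In complexes II to V the difference of these means was smaller than the SD of either group. On library totals it was smaller only in complex II. There complex III averaged 747 ± 85.7 CPM after iron citrate and 857 ± 60.7 CPM after buffer, complex IV 1350.4 ± 115 CPM after iron citrate and 1516 ± 89.1 CPM after buffer, and complex V 1591 ± 207 CPM after iron citrate and 1774.5 ± 157 CPM after buffer. The difference exceeded both SDs in complexes III and IV and the buffer SD in complex V. CPM rest on 1 amplicon per gene, so a sum is weighted by how well each amplicon is read and is no count of complexes.

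**Figure D1:**
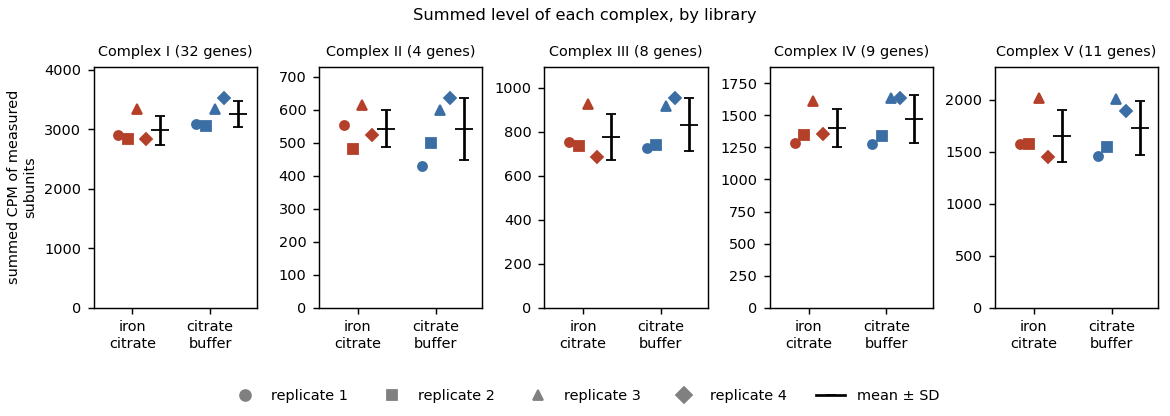
Summed CPM of the measured subunit genes of each complex, 1 symbol per library (shape gives the replicate number), with the mean and SD of each group in black; every axis starts at 0. Iron citrate replicate 3 is the highest iron citrate library in all 5 complexes, and citrate buffer replicates 3 and 4 are the 2 highest buffer libraries in all 5.

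In complex I, 28 of 32 genes had a negative log2 fold change and 4 a positive one, with a median of -0.11, and none was called. Most of the genes named here encode accessory subunits, which surround the catalytic core. The 3 genes with the smallest p were *Ndufb3*, *Ndufa2* and *Ndufb10*. *Ndufb3*, a small subunit of the membrane arm, had 64.7, 66.7, 73.2 and 68.4 CPM after iron citrate, against 79.8, 84.5, 85.3 and 94.1 CPM after buffer. The groups did not overlap, and edgeR put the log2 fold change at -0.33 (SE 0.11, 95% interval -0.58 to -0.08, adjusted p = 0.333). DESeq2 put it at -0.36 with an adjusted p of 0.0108, the only alternative that called it.

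*Ndufa2*, a subunit of the arm that reaches into the matrix, had 76.1, 75.9, 71.9 and 68.4 CPM after iron citrate, against 108, 79.0, 88.0 and 81.7 CPM after buffer. Its groups did not overlap either (log2 fold change -0.29, SE 0.13, edgeR adjusted p = 0.333), and citrate buffer replicate 1 was the highest library. *Ndufb9*, a membrane arm subunit and the gene with the most counts in complex I, had 294, 308, 310.1 and 269 CPM after iron citrate, against 407, 339, 319 and 345 CPM after buffer. These were the only 3 members whose groups did not overlap, all 3 with the lower values after iron citrate, which is 4.69% of the members beside 2.29% of all tested targets. Over all targets 8.67% had groups that did not overlap, 6.38% with the higher values after iron citrate. *Ndufb10*, also of the membrane arm, had 55.7, 61.1, 66.5 and 55.3 CPM after iron citrate and 76.0, 60.8, 72.0 and 83.0 CPM after buffer, so citrate buffer replicate 2 lay among the iron citrate libraries.

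The most negative log2 fold change of all members, -0.46 (SE 0.23, edgeR adjusted p = 0.333), belonged to the accessory subunit *Ndufc2*, which was chosen after its values were seen. It had 24.6, 25.7, 28.4 and 23.4 CPM after iron citrate and 52.6, 32.6, 25.1 and 29.5 CPM after buffer. Citrate buffer replicate 1 alone lay far above the rest, and without citrate buffer replicates 1 and 2 the log2 fold change was -0.09.

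**Figure D2:**
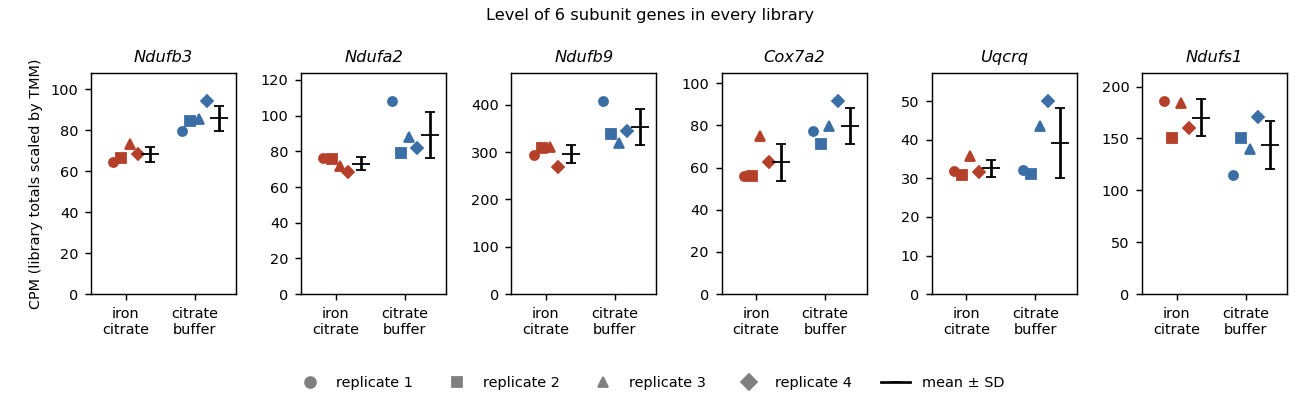
CPM of 6 subunit genes in every library (shape gives the replicate number), with the mean and SD of each group in black; every axis starts at 0. The iron citrate libraries lie below all buffer libraries in *Ndufb3*, *Ndufa2* and *Ndufb9*, in *Cox7a2* only iron citrate replicate 3 lies above a buffer library, in *Uqcrq* only citrate buffer replicates 3 and 4 lie above the iron citrate libraries and in *Ndufs1* the groups overlap.

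The 7 core subunits of complex I, among which are the carriers of the flavin and of the iron-sulfur clusters, had a median log2 fold change of -0.07, against -0.14 for the 25 accessory genes. *Ndufs1*, the largest of the core subunits and a carrier of several clusters, was the core gene with the most positive value. It had 186, 150.2, 184 and 160.5 CPM after iron citrate and 115, 150.0, 139 and 171 CPM after buffer (log2 fold change 0.24, SE 0.15, edgeR adjusted p = 0.382). *Ndufs7*, which holds the last cluster before ubiquinone, had 192, 245, 262 and 287 CPM after iron citrate and 289, 324, 274 and 271 CPM after buffer (log2 fold change -0.23, SE 0.15, edgeR adjusted p = 0.400). The groups overlapped in both. *Ndufv1*, which binds NADH, averaged 40.5 ± 5.98 CPM after iron citrate and 41.8 ± 12.9 CPM after buffer, where citrate buffer replicate 1 was lowest at 24.1 CPM. *Ndufv2* and *Ndufs8*, which also carry clusters, had log2 fold changes of 0.10 and -0.10. *Ndufa4* carries a complex I name but is now counted with complex IV in mammals. It averaged 199.3 ± 19.4 CPM after iron citrate and 220.4 ± 41.1 CPM after buffer.

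In complex II 2 genes had a positive and 2 a negative log2 fold change, the median was 0.02, and none was called. *Sdhb*, the iron-sulfur subunit, had 54.5, 52.6, 60.9 and 52.3 CPM after iron citrate, against 66.0, 56.0, 66.8 and 72.3 CPM after buffer. Only citrate buffer replicate 2 lay among the iron citrate libraries (log2 fold change -0.25, SE 0.13, edgeR adjusted p = 0.335). *Sdha*, the flavoprotein that oxidises succinate, averaged 190.5 ± 24.7 CPM after iron citrate and 191 ± 39.7 CPM after buffer. *Sdhc* and *Sdhd*, which anchor the enzyme in the membrane and hold its haem, had log2 fold changes of 0.08 and 0.04. *Sdhd* had 132, 111, 155 and 113 CPM after iron citrate and 80.5, 117, 146 and 153 CPM after buffer, and citrate buffer replicate 1 was the lowest library while the other 7 overlapped.

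In complex III 6 of 8 genes had a negative log2 fold change, with a median of -0.14, and none was called. *Uqcrb*, which lines a ubiquinone site, had 69.5, 78.9, 88.1 and 75.9 CPM after iron citrate, against 103, 89.2, 96.6 and 86.8 CPM after buffer. The groups overlapped only between iron citrate replicate 3 and citrate buffer replicate 4 (log2 fold change -0.27, SE 0.12, edgeR adjusted p = 0.333). *Uqcr11*, a small accessory subunit, averaged 67.1 ± 13.1 CPM after iron citrate and 83.2 ± 13.6 CPM after buffer (log2 fold change -0.31). *Uqcrq*, another small subunit, had 31.9, 30.9, 35.8 and 31.6 CPM after iron citrate and 32.1, 31.1, 43.7 and 49.9 CPM after buffer (log2 fold change -0.27, SE 0.18, edgeR adjusted p = 0.412). The core proteins *Uqcrc1* and *Uqcrc2* had log2 fold changes of -0.13 and -0.04, and the hinge protein *Uqcrh* one of 0.05. The Rieske iron-sulfur protein *Uqcrfs1* averaged 79.7 ± 13.8 CPM after iron citrate and 72.3 ± 19.1 CPM after buffer.

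In complex IV, whose catalytic centre is made from mitochondrial DNA, 6 of 9 genes had a negative log2 fold change, with a median of -0.06, and none was called. *Cox7a2*, the form of subunit VIIa that is not confined to muscle, had 55.8, 56.1, 74.9 and 62.9 CPM after iron citrate, against 77.3, 71.2, 79.5 and 91.3 CPM after buffer. Iron citrate replicate 3 lay above citrate buffer replicate 2 and below the other buffer libraries (log2 fold change -0.35, SE 0.14, edgeR adjusted p = 0.333). *Cox5b*, a zinc-binding subunit, had 86.1, 79.8, 105 and 75.0 CPM after iron citrate, against 106, 96.6, 114 and 111 CPM after buffer, with the same overlap (log2 fold change -0.30, SE 0.14, edgeR adjusted p = 0.333). *Cox6a1*, whose upstream stretch is given above, had 496, 524, 589.9 and 486 CPM after iron citrate and 363, 507, 680.0 and 639 CPM after buffer. The buffer libraries again spanned all 8 (log2 fold change -0.06). *Cox6b1*, which faces the intermembrane space, and *Cox7b*, an accessory subunit, had log2 fold changes of 0.05 and -0.15.

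In complex V 8 of 11 genes had a negative log2 fold change, with a median of -0.09, and none was called. The catalytic *Atp5b* had 365, 384, 512 and 335 CPM after iron citrate and 233, 305, 414 and 383 CPM after buffer. Its log2 fold change, 0.26 with an SE of 0.21 (edgeR adjusted p = 0.4996), was the most positive of all 64 members, and its groups overlapped. It was 0.12 without citrate buffer replicate 1 and 0.0032 without citrate buffer replicates 1 and 2. *Atp5j2* and *Atp5k*, the membrane subunits f and e, had log2 fold changes of -0.32 and -0.30. *Atp5k* had 97.9, 101, 106 and 83.0 CPM after iron citrate and 147, 112, 99.6 and 119.9 CPM after buffer. *Atp5j*, coupling factor F6 of the stalk, averaged 214 ± 20.9 CPM after iron citrate and 249 ± 23.1 CPM after buffer (log2 fold change -0.22, SE 0.13, edgeR adjusted p = 0.371). The 5 genes of the F1 head had a median of -0.08 and the 6 of the membrane part and stalk one of -0.15.

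**Figure D3:**
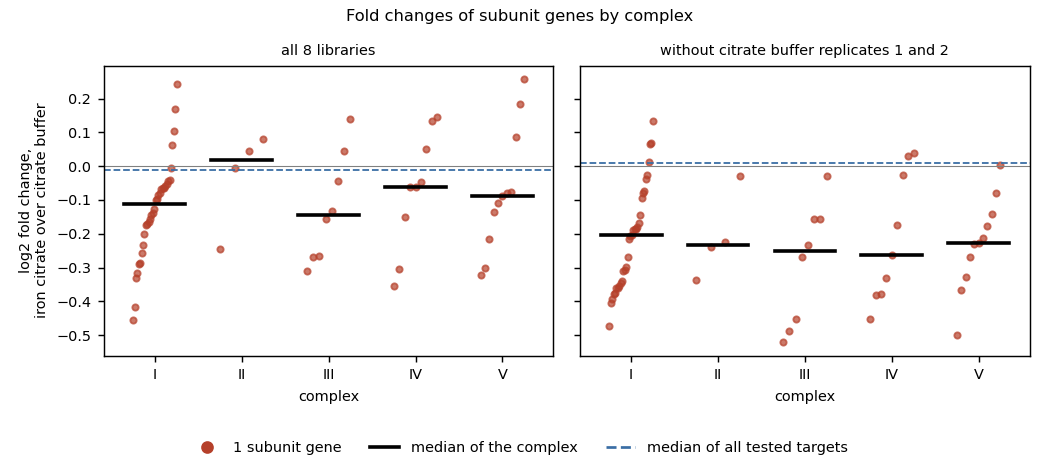
Log2 fold change of each subunit gene by complex, with all 8 libraries at left and without citrate buffer replicates 1 and 2 at right; bars are the medians of the complexes and the dashed line is the median of all tested targets. The medians run from -0.14 to 0.02 at left and from -0.26 to -0.20 at right.

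Iron is bound by 11 of the measured subunits of the chain, 10 of them members, with cytochrome c1 (*Cyc1*) outside the set of names. Of these 11 none was called, 5 had a positive and 6 a negative log2 fold change, and the median was -0.05. Without citrate buffer replicates 1 and 2 1 was positive and 10 were negative, with a median of -0.16. *Cyc1* had 74.3, 82.2, 108 and 91.2 CPM after iron citrate and 118, 94.1, 99.5 and 95.3 CPM after buffer (log2 fold change -0.19, SE 0.15, edgeR adjusted p = 0.477).

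With citrate buffer replicate 1 alone left out, 53 of the 64 members had a negative log2 fold change, the median was -0.16 and none was called. Without citrate buffer replicates 1 and 2 the values after iron citrate lay further below those after buffer, still with none called. This fit over 14828 targets called 1.9% of all targets (1.35% higher and 0.546% lower) and 0 of the 64 members, the smallest adjusted p being 0.0776 for *Uqcrq* (log2 fold change -0.52, SE 0.15). The median log2 fold change of the members was -0.23, beside 0.01 over all targets, and 57 of 64 were negative (89.1%, against 48.8% of all targets). At an unadjusted p under 0.05, 21 members were lower and 0 higher, against 5.48% and 7.41% of all targets. In 23 members (35.9%) the 4 iron citrate values lay below both remaining buffer values, and in 0 above them, against 9.9% and 12.1% of all targets (22% in either direction). The median was -0.20 in complex I, -0.23 in complexes II and V, -0.25 in complex III and -0.26 in complex IV. DESeq2, tried on these 6 libraries after the data were seen, called 1 member, *Uqcrq* (-0.53, adjusted p = 0.0428), where it called 2.95% of all targets (1.03% lower). Only 2 buffer libraries enter these fits, and they are the 2 in which the members lay highest. The median log2 deviation of the members was 0.16 and 0.22 in them. It was -0.07 in each of citrate buffer replicates 1 and 2. One of the 9 endothelial markers, *Mcam* (the gene of CD146), was called in the edgeR fit, with the lower values after iron citrate (log2 fold change -0.62). Of the 9, 3 had a positive and 6 a negative log2 fold change, with a median of -0.22. The part of these markers in the members' values was not tested.

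Most members were high or low together in iron citrate replicate 3 and in citrate buffer replicates 3 and 4. Iron citrate replicate 3 was the highest iron citrate library in 56 of 64 members (87.5%), against 31.3% of all tested targets. Its members lay at a median of 0.29 (log2 CPM) above the mean of the other 3 iron citrate libraries, where all targets lay 0.03 above. Citrate buffer replicates 3 and 4 both lay above replicates 1 and 2 in 43 members (67.2%), against 33.5% of all targets. Relative to each member's mean over the 8 libraries, the median log2 deviation was -0.12, -0.11, 0.18 and -0.16 in iron citrate replicates 1 to 4 and -0.07, -0.07, 0.16 and 0.22 in citrate buffer replicates 1 to 4. The summed CPM of the 11 iron-binding subunits was likewise highest among the iron citrate libraries in replicate 3, at 1530 CPM, and among the buffer libraries in replicate 4, at 1539 CPM. With iron citrate replicate 3 left out, the median log2 fold change of the members was -0.18, and with citrate buffer replicate 4 left out it was -0.03.

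**Figure D4:**
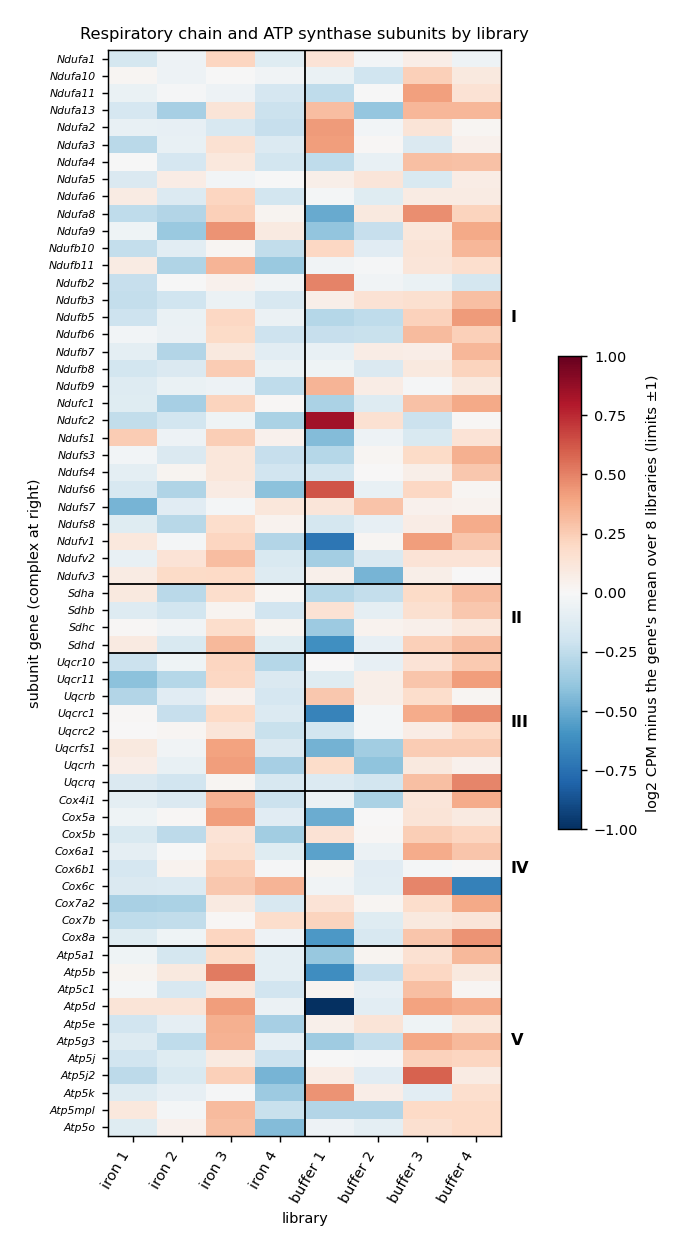
Level of 63 of the 64 subunit genes (rows, by complex) in the 8 libraries (columns), as log2 CPM minus the gene's mean over the libraries; the colour scale ends at -1 and 1. Iron citrate replicate 3 and citrate buffer replicates 3 and 4 are red in most rows, and citrate buffer replicate 1 holds both the strongest red and the strongest blue cells.

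Markers of other cells differed between the same libraries. The summed CPM of 9 hepatocyte markers, from a cell type rich in mitochondria, was 745, 430.1, 410.1 and 363 in iron citrate replicates 1 to 4 and 441, 737, 533 and 871 in citrate buffer replicates 1 to 4. None of the 9 was called or at 0. Within the iron citrate group these markers were highest in replicate 1, and the Kupffer and stellate cell markers given next were highest in replicate 3. The summed CPM of 8 Kupffer cell markers was 607 to 1043 in the iron citrate libraries, highest in replicate 3, and 690 to 997 in the buffer libraries, highest in replicate 1. Most of it was the lysozyme *Lyz2*, which other myeloid cells make too (949.6 CPM in citrate buffer replicate 1). The other 7 all had positive log2 fold changes, with none called. They summed to 219, 338, 444 and 151 CPM in iron citrate replicates 1 to 4 and to 47.0, 192, 261 and 245 CPM in citrate buffer replicates 1 to 4, where replicate 1 was the lowest of all 8 libraries. Among 6 stellate cell markers, none called, the sum was 367, 513, 568 and 548 CPM in iron citrate replicates 1 to 4 and 215, 406, 602 and 310.3 CPM in citrate buffer replicates 1 to 4. The erythroid *Alas2* had 2.05, 6.44, 7.55 and 2.94 CPM after iron citrate and 0.57, 1.25, 1.69 and 2.38 CPM after buffer (log2 fold change 1.70, edgeR adjusted p = 0.333). T, NK and B cell markers, 6 in all, summed to 1832 CPM in citrate buffer replicate 1 and to 592 to 840 CPM in the other 7 libraries. The part of any of these other cells in the members' values was not tested.

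Citrate buffer replicate 1 did not shift the members in 1 direction. Set against the mean of citrate buffer replicates 2 to 4, its members ran from -1.51 to 0.85 on the log2 scale, with a median of -0.14. The lowest was *Atp5d*, the delta subunit of the F1 head, at 14.2 CPM in citrate buffer replicate 1 and 32.9 to 46.9 CPM in the other buffer libraries, and the highest was *Ndufc2*. Both were chosen after their values were seen. Across the 64 members this deviation and the length of the transcript had a Spearman correlation of -0.39, beside -0.32 over 13756 tested targets with a known length. For the log2 fold change (iron citrate over citrate buffer) the correlation with length was 0.22 in the members and 0.44 over those targets. Without citrate buffer replicates 1 and 2 it was -0.09 in the members and 0.14 over those targets. These are correlations across genes of the same libraries and are given as a description. The 32 members with the shorter transcripts had a median deviation of -0.03 and the 32 with the longer ones a median of -0.32.

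**Figure D5:**
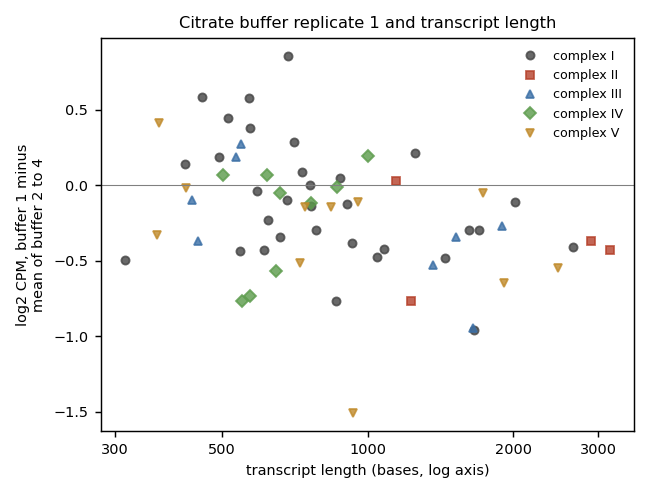
Log2 CPM in citrate buffer replicate 1 minus the mean of citrate buffer replicates 2 to 4, against transcript length (log axis), 1 symbol per subunit gene. Values range from -1.51 (*Atp5d*) to 0.85 (*Ndufc2*), and the genes near the right edge all lie below 0.

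Forms of subunits that belong to heart and skeletal muscle were read at low levels in most libraries. *Cox7a1* had 3.81, 4.72, 4.93 and 8.44 CPM after iron citrate and 24.02, 10.3, 6.05 and 4.37 CPM after buffer. *Cox6a2* had 4.10, 4.83, 3.67 and 5.23 CPM after iron citrate and 16.1, 7.67, 3.11 and 3.18 CPM after buffer. In both genes citrate buffer replicate 1 was the highest library and replicate 2 came next in the buffer group. Neither was called (edgeR adjusted p = 0.336 and 0.436). The same order was seen in *Cox6b2*, an isoform not among the muscle forms, with 18.0, 7.92, 5.87 and 2.38 CPM in citrate buffer replicates 1 to 4. Citrate buffer replicate 1 was the highest buffer library in 42.9% of all tested targets and in 18.8% of the 64 members. *Cox8b* did not exceed 0.879 CPM in any library and was not tested. Of the 11 measured genes of the list of other subunits and isoforms, 7 were tested and none was called, with a median log2 fold change of -0.19. Without citrate buffer replicates 1 and 2 that median was 0.06.

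Genes that build, feed and regulate the chain were counted beside it. Of 43 assembly factors none was called, 15 had a positive and 28 a negative log2 fold change, and the median was -0.09 (-0.18 without citrate buffer replicates 1 and 2). The 2 with the smallest p went opposite ways. *Lrpprc*, which stabilises mRNAs made in mitochondria, had 68.0, 58.7, 70.3 and 69.4 CPM after iron citrate, against 51.9, 40.5, 46.5 and 50.04 CPM after buffer (log2 fold change 0.50, SE 0.13, edgeR adjusted p = 0.208). *Ndufaf3*, an assembly factor of complex I, averaged 37.7 ± 3.17 CPM after iron citrate and 56.6 ± 10.9 CPM after buffer (log2 fold change -0.59, SE 0.16, edgeR adjusted p = 0.224). The groups overlapped in neither, and DESeq2 called both (adjusted p = 0.0217 and 0.0223).

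None of the 11 tested genes of iron-sulfur cluster assembly was called, and their median was -0.03 (-0.09 without citrate buffer replicates 1 and 2). *Hspa9*, the mitochondrial chaperone that helps to hand over the clusters, averaged 157 ± 15.03 CPM after iron citrate and 109 ± 15.3 CPM after buffer (log2 fold change 0.52, edgeR adjusted p = 0.214, DESeq2 adjusted p = 0.0234). *Bola3*, which acts late in cluster assembly, averaged 23.5 ± 1.16 CPM after iron citrate and 29.3 ± 3.32 CPM after buffer (log2 fold change -0.32, edgeR adjusted p = 0.333). The 15 tested regulators of mitochondrial biogenesis had a median of 0.17 and 12 positive values, with none called. Among them *Gabpb2*, a partner of the DNA-binding GABP subunit, had a log2 fold change of 0.35 and the nuclear receptor *Esrra* one of -0.49. Without citrate buffer replicates 1 and 2 the median of the list was 0.06 and *Esrra* was at -0.09.

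Of 18 enzymes of the citric acid cycle and pyruvate dehydrogenase none was called, 12 values were positive and the median was 0.06. Without citrate buffer replicates 1 and 2 8 were positive and 10 negative, with a median of -0.02. *Pdha1*, of pyruvate dehydrogenase, averaged 250.1 ± 12.6 CPM after iron citrate and 214 ± 8.01 CPM after buffer, without overlap (log2 fold change 0.22, edgeR adjusted p = 0.333). *Ogdh*, of the citric acid cycle, had a log2 fold change of 0.45 with all libraries and of 0.08 in that fit. Of 7 carriers and channels none was called, and the median was 0.16 (0.03 without citrate buffer replicates 1 and 2). *Vdac1*, the channel of the outer membrane, had 168, 162, 177 and 144 CPM after iron citrate, against 66.8, 89.7, 119 and 134 CPM after buffer (log2 fold change 0.67, SE 0.20, edgeR adjusted p = 0.307). Its groups did not overlap, and without citrate buffer replicates 1 and 2 the log2 fold change was 0.36.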

How the data were processed

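Libraries were made from RNA of sorted liver sinusoidal endothelial cells with the Ion AmpliSeq mouse expression panel, per the labels' protocols. The authors deposited whole-number read counts per RefSeq target, 1 table per library. Per the submitters' processing notes, HTSeq 0.6.0 and DESeq2 1.18.1 were used. Which aligner, genome build and read filters served is not given in the sources used here. Summary lines for reads without a target made up 2.15% to 4.60% of the reads and were left out. Each gene is read through 1 amplicon, so CPM are compared between libraries and not between genes, and reads that match pseudogenes or near-identical copies cannot be told apart.

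Accessions were matched to symbols with RefSeq tables (GRCm38.p6), 18128 with their version and 4324 without it, 110 through GENCODE, and 1368 stayed unmatched. Iron citrate was compared with citrate buffer in edgeR 4.0.16 (R 4.3.3) with filterByExpr, TMM factors, a robust quasi-likelihood test and Benjamini-Hochberg adjustment over all tested targets. Genes with an adjusted p below 0.05 are termed called. CPM were counts over library totals scaled by TMM. Standard errors and 95% intervals came from the F statistic. Fold changes relative to other libraries of a group used log2(CPM + 0.5). Transcript lengths were those of GENCODE M21. The alternatives were other scaling factors, DESeq2 1.42.0, limma-voom (limma 3.58.1) with sample weights, other filters, the replicate number as a block and libraries left out. The edgeR step was run on simulated counts with planted changes of 2-fold or more. These had no outlying library and no genes that moved together, so that run does not cover changes as small as those of the members. Pairs of libraries differed by more than sampling noise (chi-square per degree of freedom at least 8.79). Named genes were the 3 members per complex with the highest mean CPM and the 3 with the smallest p, iron-binding subunits, members whose groups did not overlap, and up to 2 genes per further list. The members, lists and motifs were chosen with earlier results of these data known. One member entered all fits, counts and sums and is not reported here by name.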

Additional observations from a re-analysis of the deposited data

Results flagged for a closer look

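In 102 groups of 4 libraries checked, the highest or lowest library stood apart from the other 3 by Dixon's criterion in 3. Chance gives about 1 group in 20, so 3 of 102 were no excess. The gap was 0.852 of the range for the summed CPM of complex I in the iron citrate group, where replicate 3 was at 3350 CPM and the others at 2836 to 2912 CPM. It was 0.865 for the sum over all 64 subunit genes in the same group, with replicate 3 at 8519 CPM and the others at 6847 to 7073 CPM. That sum includes complex I, so these flags are not separate. It was 0.842 for *Ckmt1*, a mitochondrial creatine kinase, in the buffer group, with replicate 1 at 9.40 CPM and the others at 1.601 to 2.84 CPM.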

How the results depend on the processing

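The count of called members stayed at 0 in 16 of 17 alternatives and was 1 with DESeq2. It was also 1 with DESeq2 without citrate buffer replicates 1 and 2. The median log2 fold change of all members was negative in all 17 alternatives (-0.23 to -0.03), as were those of complexes I, III and V. It became -0.23 in complex II and -0.26 in complex IV without citrate buffer replicates 1 and 2, and was positive in complex II in 6 alternatives (up to 0.12) and in complex IV without citrate buffer replicate 3 (0.04) or 4. Library totals and upper-quartile factors moved the median of all targets to -0.11 and -0.12, and that of the members to -0.19 and -0.20. Under library totals the log2 ratio of summed CPM was -0.23 in complex I and -0.19 over all members, and the groups of complex I no longer overlapped. The cause of these shifts was not tested.

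Over all targets 81 genes were called, 365 with DESeq2, 289 with limma-voom, 281 without citrate buffer replicates 1 and 2, and 46 to 259 with 1 library left out, the highest without citrate buffer replicate 1. With the replicate number as a block 43 were called and no member was. A pairing by number was not shown. The deviations of same-numbered libraries from their group means correlated at 0, 0.18, 0.61 and -0.32, and not every library matched its own number best. Iron citrate replicate 3 did match citrate buffer replicate 3 best. So few correlations cannot tell whether libraries shared a day or batch. DESeq2 called 3 assembly factors and 1 gene of iron-sulfur cluster assembly, limma-voom 1 assembly factor, and leaving out 1 library 0 to 1.

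Among 45 named genes, 14 changed sign in at least 1 alternative, with no call on either side. The block gave *Sdha* 0.0071 and no filter 0.00065. Library totals gave *Sdhc* -0.012, *Sdhd* -0.039, *Uqcrh* -0.064 and *Cox6b1* -0.056. Upper-quartile factors gave -0.026, -0.058, -0.077 and -0.068 for these 4 and -0.0026 for *Ndufv2*. Limma-voom gave *Sdhc* -0.022, *Sdhd* -0.14, *Ndufv2* -0.021, *Uqcrfs1* -0.026 and *Cox6a2* 0.10. Without citrate buffer replicates 1 and 2 the values were -0.029 (*Sdhc*), -0.23 (*Sdhd*), -0.028 (*Uqcrh*), -0.074 (*Ndufv2*), -0.16 (*Uqcrfs1*), 0.064 (*Cox7a1*) and 0.50 (*Cox6a2*). With 1 library left out the log2 fold changes ran from -0.093 to 0.11 (*Sdha*), -0.014 to 0.13 (*Sdhc*), -0.12 to 0.16 (*Sdhd*), -0.32 to 0.015 (*Uqcrc1*), -0.11 to 0.023 (*Uqcrc2*), -0.10 to 0.15 (*Uqcrh*), -0.22 to 0.054 (*Cox6a1*), -0.022 to 0.11 (*Cox6b1*), -0.18 to 0.022 (*Ndufs8*) and -0.24 to 0.096 (*Ndufv1*). Depth limits only the members of few reads, the lowest count being 6 (*Cox6c*).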
